A study of Mus musculus with 18 samples.

Results

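The genes described here are 43 imprinted genes of the mouse, chosen by their known imprinting with the measured differences between double knockout and control embryos in these same libraries in view. They were found by symbol among the 53465 gene identifiers of the deposited table, and each of the 43 symbols matched 1 identifier. An imprinted gene is transcribed mainly from 1 parental copy, because the copies carry different methylation marks from the egg and the sperm at control regions that often govern several neighbouring genes at once. Many paternally expressed genes promote fetal growth and many maternally expressed ones restrain it, and several clusters are run by a long noncoding RNA that silences its neighbours on the same chromosome. In the embryo proper, imprinted genes are known for high expression in mesoderm-derived tissues and in the forming nervous system. Counts per gene do not separate parental copies, so that all values below are the sum of both.

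Of the members, 23 are known as paternally expressed and 19 as maternally expressed, and Gnas, which makes transcripts of either kind, was kept apart. These classes come from earlier knowledge and may not hold in every tissue. Whether they hold in the tissue used here was not measured. There are 10 clusters with more than 1 member, which together hold 33 members, and 10 members stand alone. The members lie on 10 chromosomes, with 14 on chromosome 7, and 36 of the 43 are annotated as protein coding.

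The libraries came from 9 mouse embryos at embryonic day 9 with 20 to 24 somites, 5 controls and 4 double knockouts (DKO). In the DKO embryos Meis1 and Meis2, which encode homeodomain transcription factors of the TALE class, were removed conditionally by a Cre recombinase under Delta1 control, so that deletion depended on where and when that driver was active. The labels do not give the Cre status of the controls. Each embryo was cut into a posterior piece, made of the axial bud with the 10 to 12 newest somites, and an anterior piece, made of the rest of the somite-bearing axis, and the head was left out. Each of the 4 groups thus holds 1 piece from each embryo of a genotype (n = 5 for controls, n = 4 for DKO), and both genotypes include embryos labelled as male and as female.

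Libraries held 12.7 to 38.2 megacounts, and 3 counts corresponded to 0.079 to 0.233 CPM (counts per megacount after scaling of library sizes). Meis1 reads ranged from 113 to 135 CPM in the anterior controls and from 89.7 to 111 CPM in the anterior DKO libraries, and Meis2 reads from 177 to 203 and from 130 to 157 CPM. In the posterior pieces the ranges were 59.6 to 99.8 and 46.7 to 71.9 CPM for Meis1, which overlapped, and 117 to 162 and 91.1 to 116 CPM for Meis2. Which exons these reads cover cannot be seen from counts per gene. In 1 of the 9 embryos, control 1, the reads of Y-linked genes went against the sex label in both of its libraries, and counts of members are therefore also given without it. The summed level of 7 axial bud and presomitic markers was 275 to 430 CPM in posterior and 17.9 to 20.8 CPM in anterior control pieces. That of 6 neural tube markers was 169 to 241 and 427 to 499 CPM, and that of 6 somite markers 390 to 537 and 325 to 392 CPM. Markers of the axial bud were thus higher in the piece whose label names it. In such pieces, fewer cells of a type and less RNA per cell cannot be told apart.

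Together the members made up a share of counts that ran from 1.03% to 1.47% of a library. Levels per kilobase of annotated exon allow a rough comparison of genes only, since all annotated exons count, used or not. On this scale the highest level averaged over the 18 libraries was that of H19, a noncoding RNA, at 1110 CPM per kb. It was followed by Mest, which encodes a hydrolase-like protein, at 433 CPM per kb, by the growth factor gene Igf2 at 234, and by Grb10, which encodes an adaptor that restrains insulin and IGF receptor signalling, at 159. Nnat (a small membrane protein of neural and endocrine tissue) had 155, the cell cycle inhibitor gene Cdkn1c 118, Gnas (a G protein subunit) 111, and Peg10, a gene of retrotransposon origin, 93 CPM per kb. The 8 leading genes thus include 3 maternally expressed and 4 paternally expressed members beside Gnas. At the other end stood Rtl1, another gene of retrotransposon origin, at 0.506 CPM per kb, Dcn (the proteoglycan decorin) at 0.307, the organic cation transporter gene Slc22a3 at 0.264 and Ascl2, a transcription factor of the trophoblast, at 0.195. Kcnq1ot1 had 0.161 CPM per kb over an annotated exon of 93092 bp. Kcnk9, a potassium channel gene, had no more than 1 count in any library and could not be tested anywhere.

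**Figure D1:**
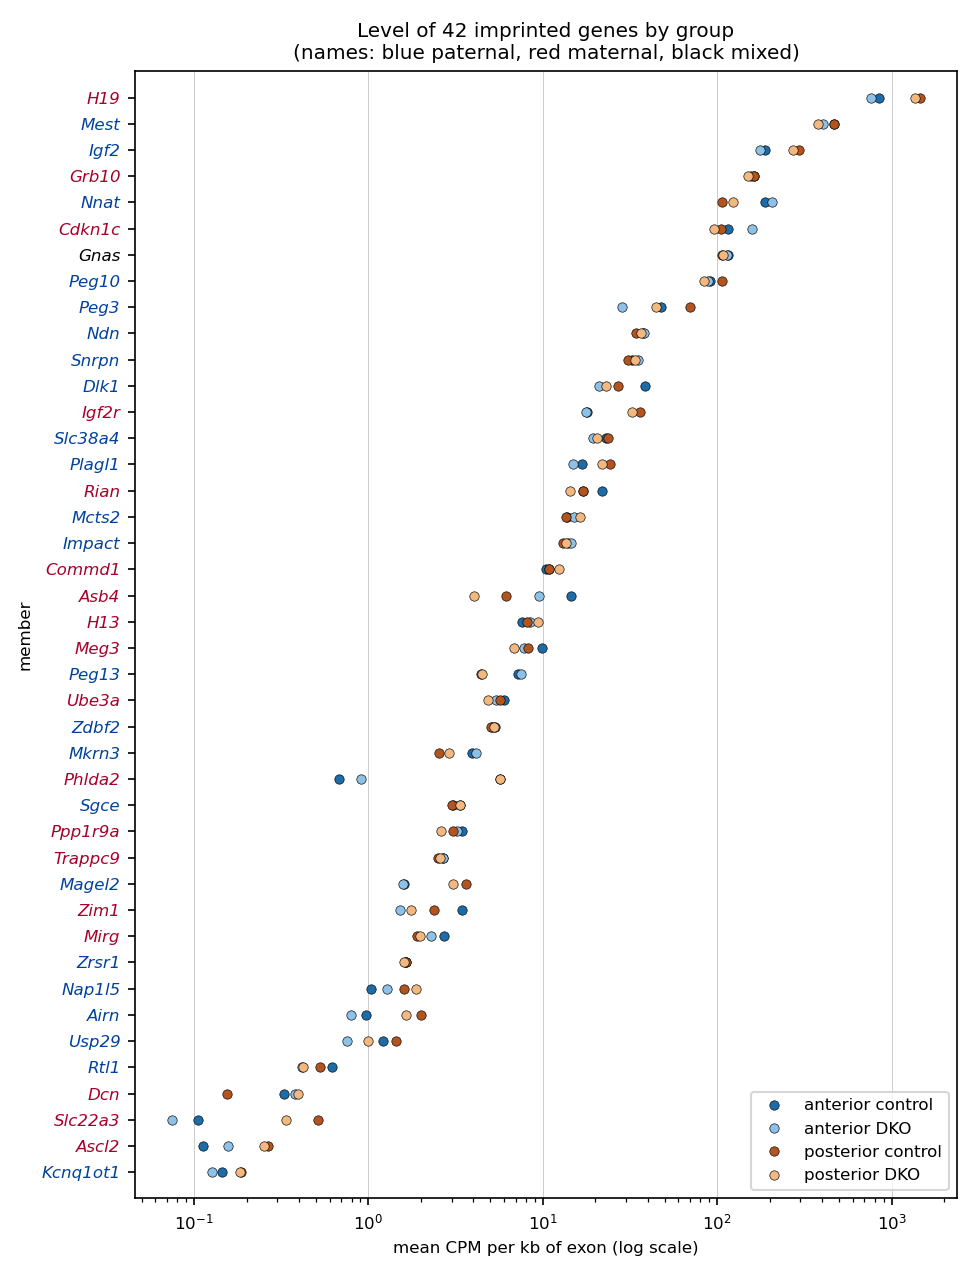
Mean level of 42 members in CPM per kb of exon (log scale) in the 4 groups of libraries, ordered by their mean over the 18 libraries, with names coloured by the parental copy known to be expressed (Kcnk9 is not drawn). Levels span from H19 at 1110 to Kcnq1ot1 at 0.161 CPM per kb, and the widest separation of anterior from posterior points is seen for Phlda2 and Slc22a3.

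The first comparison asked how the members are distributed between the posterior and the anterior piece. In the controls 17 of 41 tested members passed the threshold (adjusted p below 0.05, edgeR), 10 with a higher and 7 with a lower posterior level, where 25.4% of all 15294 genes tested were called (12.1% higher and 13.3% lower). In the DKO embryos 14 of 42 passed, 8 higher and 6 lower, against 18.5% of 15777 genes (8.76% higher and 9.70% lower). Both sets of samples are independent, and 13 members were called in the same direction in both, which is 76.5% of the control calls and 92.9% of the DKO calls. Over all genes 2306 were called in the same direction in both, 59.4% of the control calls and 79.2% of the DKO calls. The 8 higher in both were Igf2, H19, Phlda2, Peg3, Magel2, Igf2r, Airn and Slc22a3, and the 5 lower in both were Rian, Asb4, Mkrn3, Nnat and Peg13. The median log2 fold change of the members was −0.02 in controls and 0.04 in DKO embryos, beside −0.01 and 0.01 for all genes tested. The share of counts that the members took together was higher in the posterior piece of all 9 embryos, at 1.10% to 1.34% anterior and 1.29% to 1.47% posterior in controls and at 1.03% to 1.14% and 1.16% to 1.34% in DKO embryos. H19 alone took 0.17% to 0.263% of the counts of an anterior and 0.296% to 0.407% of those of a posterior library.

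Without control 1, 15 members were called in the controls (19% of all genes), the calls of Zim1 and Nap1l5 being lost. The fits above had no term for the embryo, although both pieces came from the same embryos. With the embryo as a replicate block, the calls were 21 in the controls (33.6% of all genes) and 17 in the DKO embryos (19% of all genes). Looked at embryo by embryo, the posterior piece was higher in all 9 embryos for 9 members, the 8 named and Plagl1, and lower in all 9 for 7 members, the 5 named with Meg3 and Gnas. Over the 16428 genes kept in the 18 libraries, the corresponding shares were 11% and 13.1%. Groups of libraries did not overlap for 8 members higher and 8 lower in the controls (9.42% and 10.7% of all genes) and for 9 higher and 7 lower in the DKO embryos (10.9% and 12.7%).

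**Figure D2:**
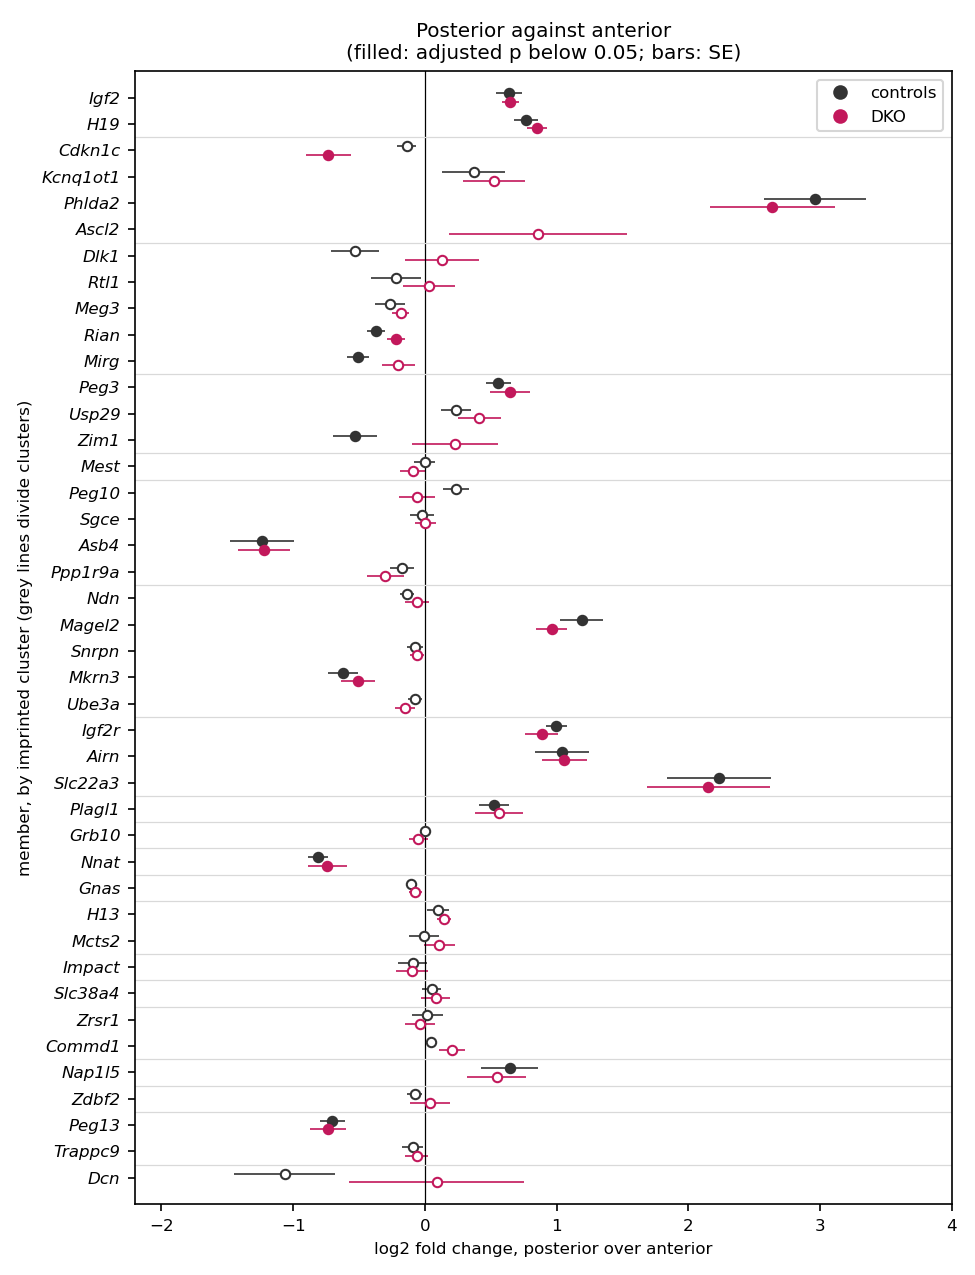
Log2 fold change of posterior over anterior pieces for each tested member, in controls (grey) and in DKO embryos (pink), with bars for the standard error and filled points where the adjusted p was below 0.05. Phlda2 and Slc22a3 lie farthest to the right at above 2 in both, Asb4 lies farthest to the left among filled points at −1.24 and −1.22, and 13 members are filled on the same side in both sets of embryos.

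Igf2 and H19 lie 72.6 kb apart on chromosome 7 (Igf2 at 142650766 to 142666816, H19 at 142575529 to 142578143, both on the minus strand of GRCm38). Igf2 is expressed from the paternal copy and encodes the main fetal growth factor of the embryo. H19 is expressed from the maternal copy and is the host of the Mir675 hairpin. Its mature products, as RefSeq gives them for GRCm38.p6, are shown because H19 gave the most reads of any member, and capitals mark the seed (bases 2 to 8).
mmu-miR-675-5p: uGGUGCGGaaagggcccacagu
mmu-miR-675-3p: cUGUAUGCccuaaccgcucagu
The sequencing was of poly(A) RNA, so that the level of these small RNAs was not measured.

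In control embryos 1 to 5, H19 stood at 1970, 1950, 2580, 1840 and 2140 CPM in the anterior and at 3580, 3370, 3570, 4150 and 3220 CPM in the posterior pieces. In DKO embryos 1 to 4 the values were 1780, 2030, 1710 and 1950 CPM anterior and 2980, 3350, 3490 and 3680 CPM posterior. Every posterior library exceeded every anterior one, by 0.77 ± 0.09 on the log2 scale (± is the SE here and in all fold changes) in controls (edgeR adjusted p = 4.01e-05) and by 0.86 ± 0.08 in DKO embryos (adjusted p = 3.97e-05).

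Igf2 moved in parallel with a smaller step. Its control values were 991, 1090, 1350, 925 and 1020 CPM anterior and 1680, 1670, 1630, 1960 and 1470 CPM posterior, and its DKO values 954, 1040, 997 and 1020 CPM anterior and 1520, 1630, 1710 and 1420 CPM posterior. The log2 fold changes of 0.64 ± 0.10 (edgeR adjusted p = 0.000395) and 0.65 ± 0.06 (adjusted p = 7.63e-05) differed little in size, and the anterior and posterior libraries did not overlap in either genotype. Igf2 shares 3596 bp of exon with Gm49394 on the same strand, a gene that was given 0 to 181 counts, so that a small part of the reads may be split between them.

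Igf2r encodes the receptor that takes up IGF2 for degradation, and it is maternally expressed in mice. Its anterior control values of 174, 177, 191, 134 and 163 CPM stood against 332, 337, 341, 345 and 316 CPM in the posterior pieces. In DKO embryos the values were 159, 156, 179 and 161 CPM anterior and 308, 318, 359 and 224 CPM posterior. The posterior level was thus 2-fold that of the anterior one in controls (log2 fold change 0.997 ± 0.079, edgeR adjusted p = 1.93e-06) and 1.85-fold in DKO embryos (0.89 ± 0.12, adjusted p = 0.000684). DKO embryo 4 had the lowest posterior value, still above all anterior ones. The growth factor, its degrading receptor and H19 were therefore all higher in the posterior piece.

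Airn, the noncoding RNA that starts inside Igf2r (chromosome 17, 12741311 to 12860136, plus strand) and is known to silence Igf2r on the paternal copy, rose together with its target. It had 2.72, 3.64, 3.96, 2.58 and 4.47 CPM in anterior and 6.61, 7.9, 7.11, 4.79 and 9.48 CPM in posterior control pieces. DKO embryos had 2.51, 2.42, 3.58 and 2.87 CPM and 5.67, 5.13, 6.88 and 5.94 CPM. The log2 fold changes were 1.04 ± 0.21 (edgeR adjusted p = 0.00226) and 1.06 ± 0.17 (adjusted p = 0.00154), without overlap of the groups. Airn and Igf2r share no exon bases, but Airn runs through Igf2r introns on the opposite strand, and whether the counting used the read strand is not given in the sources used here.

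Slc22a3, a further member of the Igf2r-Airn cluster, had the second largest step of all members at a very low level. Its control values were 0.113, 0.852, 0.544, 0.402 and 0.453 CPM anterior, of which the first is 2 counts, and 1.69, 3.05, 1.86, 1.67 and 3.4 CPM posterior. In DKO embryos it had 0.429, 0.0514, 0.635 and 0.242 CPM anterior and 1.47, 1.15, 2.03 and 1.43 CPM posterior. The log2 fold changes were 2.23 ± 0.40 (edgeR adjusted p = 0.00109) and 2.15 ± 0.47 (adjusted p = 0.00906). All 3 members of the Igf2r-Airn cluster were thus higher in the posterior piece in both genotypes.

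Phlda2, a maternally expressed gene whose product restrains placental growth, had the largest step. Anterior control libraries had 0.509, 1.78, 0.622, 0.459 and 0.453 CPM (7 to 46 counts) and posterior ones 5.06, 8.33, 6.85, 7.92 and 3.66 CPM (56 to 233 counts). DKO embryos had 1.09, 0.514, 1.56 and 0.898 CPM anterior and 4.16, 2.65, 11.6 and 6.91 CPM posterior. These are 7.79-fold (log2 fold change 2.96 ± 0.38, edgeR adjusted p = 9.98e-05) and 6.23-fold (2.64 ± 0.47, adjusted p = 0.00299). The posterior DKO values varied widely between embryos, from 2.65 to 11.6 CPM. Of 6 trophoblast markers, Gcm1 was at 3 counts or fewer in every library and Tpbpa in every DKO library. Gcm1, Tpbpa and Prl3d1 could not be tested between regions. The summed level of the list was 17.5 to 34.3 CPM in anterior and 27.1 to 40.8 CPM in posterior control pieces. The 3 that could be tested between regions had positive log2 fold changes in both genotypes, as Phlda2 did. Plac1 was called higher posteriorly in controls (log2 fold change 1.64 ± 0.30, edgeR adjusted p = 0.00141) and in DKO embryos (1.43 ± 0.23, adjusted p = 0.00151). Hand1 had 1.57 ± 0.65 in controls (adjusted p = 0.104) and was called in DKO embryos (4.13 ± 0.73, adjusted p = 0.00263), and Krt7 had 0.15 ± 0.14 and 0.15 ± 0.14 with no call. The part of such cells in the Phlda2 values was not tested.

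Of the other members of the Kcnq1 cluster on chromosome 7, none was called higher in the posterior piece. Cdkn1c, the maternally expressed inhibitor of cyclin-dependent kinases known as p57, had 247, 194, 270, 238 and 226 CPM in anterior and 222, 208, 202, 215 and 220 CPM in posterior control pieces, and these overlapped. In DKO embryos it had 343, 381, 258 and 316 CPM anterior and 193, 246, 136 and 204 CPM posterior, without overlap. The log2 fold change was −0.14 ± 0.08 in controls, which did not pass the threshold (edgeR adjusted p = 0.214), and −0.73 ± 0.17 in DKO embryos, which did (adjusted p = 0.0127) but not without DKO embryo 1 (adjusted p = 0.0915). The difference of these differences is tested further below.

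Kcnq1ot1, the paternally expressed noncoding RNA that silences the cluster, had 10.8, 11, 14.7, 13.6 and 16.9 CPM in anterior and 15.9, 21.4, 19, 7.99 and 22.4 CPM in posterior control pieces. DKO embryos had 13.4, 9.82, 9.4 and 14.5 CPM anterior and 19.9, 9.69, 18.5 and 20.2 CPM posterior. The posterior value was lower than the anterior one in control 4 and DKO 2 and higher in the other 7 embryos, the groups overlapped in both genotypes, and neither comparison passed the threshold. With the embryo as a replicate block Kcnq1ot1 was called in DKO embryos (0.50 ± 0.15, edgeR adjusted p = 0.0466), and it was also called in controls without control 4 and in DKO embryos without DKO embryo 2. Ascl2 had no more than 23 counts in any library, with a higher posterior value in 8 of the 9 embryos, and was left out of the tests of controls between regions and of anterior pieces between genotypes, with no call in the others, except between regions without DKO embryo 3.

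Magel2 and Mkrn3 are neighbours in the Snrpn-Ube3a cluster of chromosome 7, both paternally expressed, and went in opposite directions. Magel2, of the MAGE family that partners ubiquitin ligases, had 7.92, 9.71, 7.77, 5.11 and 6.28 CPM in anterior and 16.5, 21.5, 15.5, 14 and 16.9 CPM in posterior control pieces. DKO embryos had 7.77, 7.1, 6.58 and 7.56 CPM and 14.6, 12.1, 16.4 and 13.6 CPM. The log2 fold changes were 1.19 ± 0.17 (edgeR adjusted p = 0.000179) and 0.96 ± 0.12 (adjusted p = 0.000305), with no overlap.

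Mkrn3, a RING finger protein gene known for its role in the timing of puberty, had 10.7, 9.68, 10.7, 9.93 and 9.06 CPM in anterior and 7.54, 6.74, 6.8, 5.37 and 6.02 CPM in posterior control pieces. In DKO embryos the values were 10.2, 12.2, 9.75 and 9.88 CPM and 8.62, 7.29, 6.13 and 7.42 CPM. It fell by 0.62 ± 0.11 in controls (edgeR adjusted p = 0.00114) and by 0.51 ± 0.13 in DKO embryos (adjusted p = 0.0223), again with no overlap, the DKO call being lost without DKO embryo 2, 3 or 4 (adjusted p up to 0.113).

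Their neighbours were near even. Snrpn, which encodes a protein of the splicing machinery, had 73.2, 73.3, 64, 73.7 and 67.8 CPM in anterior and 71.8, 72.6, 64.5, 64.9 and 60.3 CPM in posterior control pieces. Its DKO values were 78.6, 78.4, 73.3 and 74.6 CPM anterior and 75.4, 72.7, 72 and 71.7 CPM posterior, and no call was made (log2 fold changes −0.07 ± 0.06 and −0.06 ± 0.05). Ndn, a second MAGE family gene, and Ube3a, the ubiquitin ligase gene tied to Angelman syndrome, were not called either, except for Ndn in controls with the embryo as a replicate block (−0.14 ± 0.04, edgeR adjusted p = 0.0319). Ube3a shares 1803 bp of exon with the opposite-strand transcript Snhg14.

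In the Dlk1-Meg3 cluster on chromosome 12 all 5 members had negative log2 fold changes in controls, where 48.7% of all genes were positive, and 2 passed (13.3% of all genes were called lower). In DKO embryos 2 of the 5, Dlk1 (0.13 ± 0.28) and Rtl1 (0.03 ± 0.20), had positive values, and Rian alone passed. Rian, the maternally expressed host of small nucleolar RNAs, had 418, 394, 435, 355 and 404 CPM in anterior and 318, 281, 343, 292 and 315 CPM in posterior control pieces. DKO embryos had 291, 332, 295 and 312 CPM anterior and 267, 279, 266 and 241 CPM posterior. Rian fell by 0.37 ± 0.07 in controls (edgeR adjusted p = 0.00117) and by 0.22 ± 0.07 in DKO embryos (adjusted p = 0.0473). The DKO call was lost whichever DKO embryo was left out and under both other filters on low counts (adjusted p up to 0.138), although the posterior value was the lower one in all 9 embryos.

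Mirg, the host of a large group of microRNAs at the end of the cluster, had 20.7, 19.2, 21.7, 17.9 and 19.6 CPM in anterior and 15.3, 13.8, 14.2, 14.1 and 12 CPM in posterior control pieces, a drop with no overlap (log2 fold change −0.51 ± 0.08, edgeR adjusted p = 0.000572). Its DKO values of 16.3, 18.3, 15.1 and 16.6 CPM and 13, 14.3, 12.6 and 17.5 CPM overlapped and did not pass (−0.20 ± 0.12). Meg3, the noncoding RNA that opens the maternal transcript, had 177, 182, 208, 140 and 184 CPM anterior and 161, 156, 164, 112 and 149 CPM posterior in controls, and 147, 138, 133 and 144 CPM and 135, 124, 119 and 117 CPM in DKO embryos. It was lower posteriorly in all 9 embryos, but was not called in either genotype, while with the embryo as a replicate block it was called in controls (−0.27 ± 0.04, edgeR adjusted p = 0.000369). Meg3 was also called in controls without control 4 and, by DESeq2, in DKO embryos.

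Dlk1, the paternally expressed gene of a transmembrane protein related to the Notch ligands, had 234, 187, 277, 188 and 212 CPM in anterior and 188, 85.1, 175, 172 and 141 CPM in posterior control pieces. DKO embryos had 84.7, 196, 76 and 122 CPM anterior and 140, 166, 95.1 and 120 CPM posterior. The posterior value was lower in all 5 controls and in 2 of the 4 DKO embryos, and neither region comparison passed the threshold for Dlk1. With the embryo as a replicate block Dlk1 was called lower in controls (−0.56 ± 0.11, edgeR adjusted p = 0.00266) and not in DKO embryos, and the control call was also made without a filter and without control 2.

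Rtl1 encodes a protein of retrotransposon origin with a role in the placenta and in muscle, and it lies opposite to a chain of microRNA genes. Of 57 RefSeq hairpins between the start of Meg3 and the end of Mirg, 54 are on the plus strand, and the Rtl1 gene (109589193 to 109600330, minus strand) holds 7, of which 6 are on the strand opposite to it. Mature sequences of 5 of these 6 hairpins are shown, since RNA from the maternal copy that carries them cannot be told apart from Rtl1 reads if strand was not used. Capitals mark the seed (bases 2 to 8), which differs in all of them.
mmu-miR-431-5p: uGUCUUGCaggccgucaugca
mmu-miR-433-3p: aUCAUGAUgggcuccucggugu
mmu-miR-127-3p: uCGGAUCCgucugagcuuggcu
mmu-miR-434-3p: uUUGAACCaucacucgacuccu
mmu-miR-136-5p: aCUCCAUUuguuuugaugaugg
They lie at chr12:109590459-109590479, chr12:109591781-109591802, chr12:109592888-109592909, chr12:109594565-109594586 and chr12:109595331-109595352 of GRCm38.p6, in this order. Rtl1 itself had 2.13 to 4.74 CPM (40 to 148 counts) in the 18 libraries and no call between regions.

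The Peg3 cluster lies at the other end of chromosome 7. Peg3, a paternally expressed zinc finger gene known for effects on growth and maternal behaviour, and Usp29, a paternally expressed deubiquitinase gene, start 146 bp apart in the gene annotation and are read outward from a shared promoter region. The interval between the RefSeq start sites (Peg3 at 6730419, Usp29 at 6730583) is 163 bp long with 62% G and C, and it is shown because both genes were among the members with the lowest values in the DKO comparisons described later. Capitals mark the motif CCAAT.
Peg3-Usp29 interval, chr7:6730420-6730582, plus strand, GRCm38.p6: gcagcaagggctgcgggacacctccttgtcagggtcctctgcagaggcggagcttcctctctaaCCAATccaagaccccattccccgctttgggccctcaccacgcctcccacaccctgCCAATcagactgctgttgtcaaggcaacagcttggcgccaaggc
CCAAT occurs 2 times in it, counted on both strands, and the MEIS core letters TGACAG do not occur on either strand. In windows of 250 bp before to 50 bp after the start, CCAAT was found in 37.4% and TGACAG in 19.2% of 32851 RefSeq promoters. The 33 members with such a window have 52 of these promoters, of which 18 (34.6%) held CCAAT and 6 (11.5%) held TGACAG, the latter in Igf2, Slc22a3, Slc38a4 and Snrpn. A match is a run of letters and not a site shown to be bound.

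Peg3 had 588, 663, 772, 501 and 647 CPM in anterior and 974, 823, 967, 910 and 992 CPM in posterior control pieces. DKO embryos had 290, 388, 391 and 454 CPM anterior and 594, 738, 560 and 484 CPM posterior. It rose towards the posterior by 0.56 ± 0.10 in controls (edgeR adjusted p = 0.000982) and by 0.65 ± 0.15 in DKO embryos (adjusted p = 0.0125), with no overlap within a genotype, and the DKO call was lost without DKO embryo 1 or 2 (adjusted p up to 0.0644).

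Usp29 had 17.9, 21.4, 26.1, 19.6 and 24.8 CPM in anterior and 27.4, 21.3, 28.4, 26.3 and 25.6 CPM in posterior control pieces, which overlapped. Its DKO values were 10.5, 15.4, 12.9 and 15.4 CPM anterior and 17.5, 22.6, 15.3 and 16.5 CPM posterior. It was not called in either genotype (log2 fold changes 0.24 ± 0.11 and 0.42 ± 0.16), while with the embryo as a replicate block it was called in DKO embryos (0.42 ± 0.12, edgeR adjusted p = 0.0463).

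Zim1, the maternally expressed zinc finger gene 7.4 kb from Peg3, went the other way in controls, with 26, 26.1, 40.3, 19.5 and 27.2 CPM anterior and 22.1, 17.9, 20.1, 14.7 and 21.1 CPM posterior. The drop of 0.53 ± 0.17 passed the threshold (edgeR adjusted p = 0.0349) with overlapping groups, and was lost in 5 of 12 alternative fits, among them those without control 1, 2, 3 or 5 (adjusted p up to 0.137). DKO embryos had 7.63, 13.1, 11.2 and 16.9 CPM anterior and 21.8, 16.9, 7.89 and 10.2 CPM posterior, with no common direction among the 4 embryos.

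Nnat, Peg13 and Asb4 were the other members lower in the posterior piece in both genotypes. Nnat, paternally expressed and abundant in the developing nervous system, had 347, 279, 374, 351 and 361 CPM in anterior and 200, 181, 196, 209 and 190 CPM in posterior control pieces. DKO embryos had 374, 481, 295 and 352 CPM and 224, 246, 179 and 247 CPM. Nnat fell by 0.81 ± 0.07 (edgeR adjusted p = 6.15e-06) and by 0.74 ± 0.15 (adjusted p = 0.00575), without overlap.

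Peg13 is a paternally expressed noncoding RNA inside Trappc9, a gene of vesicle transport. It had 31.6, 32.3, 34.1, 37.4 and 33.9 CPM in anterior and 19.9, 16.4, 21.9, 21.8 and 24.1 CPM in posterior control pieces. In DKO embryos it had 35.3, 36.2, 36.9 and 33.4 CPM and 22.7, 22.7, 24.8 and 14.7 CPM. It fell by 0.70 ± 0.09 (edgeR adjusted p = 0.000126) and by 0.73 ± 0.14 (adjusted p = 0.00409). Trappc9 was even between regions at 17.7 to 23 CPM in the 18 libraries. Neural tube markers were at 427 to 499 CPM in anterior and 169 to 241 CPM in posterior control pieces, and all 6 were lower posteriorly in both genotypes. Their part in the Nnat and Peg13 values was not tested.

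Asb4, a maternally expressed substrate adaptor of a ubiquitin ligase in the Peg10-Sgce cluster, had 48.5, 45.7, 92.7, 52.8 and 46.2 CPM in anterior and 20.5, 13.7, 34.3, 27.8 and 24.8 CPM in posterior control pieces. DKO embryos had 31.7, 47.1, 32.6 and 37.7 CPM and 16.9, 21.2, 10.9 and 14.5 CPM. It fell by 1.24 ± 0.25 (edgeR adjusted p = 0.00248) and by 1.22 ± 0.20 (adjusted p = 0.00151), and this was the largest drop of any member called. Endothelial markers summed to 246 to 280 CPM in anterior and 155 to 267 CPM in posterior control pieces. In controls 2 of the 6 were called lower posteriorly and 2 had positive log2 fold changes. In DKO embryos 1 was called lower and 1 was positive. Of heart markers, 2 of 4 tested were called lower in controls and 2 of 5 in DKO embryos. The part of endothelial and heart cells in the Asb4 values was not tested.

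Within the same cluster Peg10, a gene of retrotransposon origin needed for placental development, had 604, 629, 680, 548 and 551 CPM in anterior and 748, 526, 759, 752 and 757 CPM in posterior control pieces. DKO embryos had 547, 551, 674 and 579 CPM and 505, 613, 699 and 434 CPM. Peg10 did not pass in either genotype. Control 2 was the only control without a higher posterior value, and Peg10 was called higher in controls without it and by DESeq2. Sgce, the epsilon-sarcoglycan gene that starts 98 bp from Peg10 on the other strand, and Ppp1r9a, the neurabin gene, were not called either.

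Plagl1, a paternally expressed zinc finger transcription factor gene that regulates other imprinted genes, had 114, 114, 163, 138 and 129 CPM in anterior and 175, 162, 235, 174 and 199 CPM in posterior control pieces. DKO embryos had 119, 139, 95.4 and 114 CPM and 216, 203, 154 and 116 CPM. It was higher posteriorly in all 9 embryos and passed in controls (log2 fold change 0.53 ± 0.12, edgeR adjusted p = 0.00485), while the DKO value of similar size did not (0.56 ± 0.18, adjusted p = 0.0619). The DKO call was made with the embryo as a replicate block (edgeR adjusted p = 0.0155), by DESeq2, without a filter, with all 18 libraries in 1 fit and without DKO embryo 4. DKO embryo 4 had nearly the same value in both pieces.

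Nap1l5, a paternally expressed gene related to nucleosome assembly proteins, had 1.75, 1.59, 2.41, 1.95 and 1.88 CPM in anterior and 3.5, 3.56, 2.67, 3.3 and 1.7 CPM in posterior control pieces. DKO embryos had 2.31, 3.19, 1.44 and 2.52 CPM and 3.78, 3.52, 3.15 and 3.38 CPM. The control call was weak (log2 fold change 0.65 ± 0.22, edgeR adjusted p = 0.0463) and was lost in 6 of 12 alternative fits (adjusted p up to 0.194), among them that with the embryo as a replicate block (adjusted p = 0.0515). The DKO comparison of Nap1l5 made no call.

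Mest, Grb10 and Gnas, 3 of the most abundant members, did not pass the threshold between regions. Mest had 1730, 1720, 2000, 1860 and 1870 CPM in anterior and 1770, 1470, 1940, 1970 and 2010 CPM in posterior control pieces, a log2 fold change of 0.00 ± 0.08. Grb10 had 1510, 1520, 1470, 1440 and 1460 CPM and 1470, 1440, 1510, 1520 and 1460 CPM, also 0.00 ± 0.03. Gnas had 1360, 1260, 1260, 1290 and 1270 CPM and 1240, 1190, 1160, 1240 and 1150 CPM, which do not overlap, and its small difference of −0.11 ± 0.04 lay at an adjusted p of 0.0511 (edgeR), with the call made when the embryo was a replicate block (adjusted p = 0.0241), by DESeq2 and with all 18 libraries in 1 fit. Gnas was lower posteriorly in all 9 embryos.

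In DKO embryos Mest had 1450, 1760, 1590 and 1590 CPM anterior and 1430, 1790, 1280 and 1490 CPM posterior. Grb10 had 1410, 1440, 1480 and 1370 CPM and 1410, 1450, 1460 and 1160 CPM there, and Gnas 1300, 1320, 1250 and 1240 CPM and 1210, 1280, 1190 and 1170 CPM. For none of the 3 was the region comparison called in DKO embryos. Grb10 ran from 1160 to 1520 CPM over the 18 libraries, the lowest value being that of the posterior piece of DKO embryo 4 and the next 1370 CPM. Mest also hosts Mir335 in an intron, and it shares 912 bp of exon with the opposite-strand gene Copg2.

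The remaining members were not called between regions in either genotype. They were H13 (a signal peptide peptidase) with the retrogene Mcts2 inside it, Impact (a regulator of translation), Slc38a4 (an amino acid transporter), Zrsr1 (a splicing factor retrogene) with its host Commd1, Zdbf2, and Dcn. Dcn ran from 0.16 to 5.82 CPM over the 18 libraries, and was called lower in controls with the embryo as a replicate block (−1.14 ± 0.29, edgeR adjusted p = 0.011), by DESeq2, by limma-voom and without control 3. Over all members not called, log2 fold changes ran from −1.06 (Dcn) to 0.37 (Kcnq1ot1) in controls and from −0.30 to 0.86 (Ascl2) in DKO embryos.

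**Figure D3:**
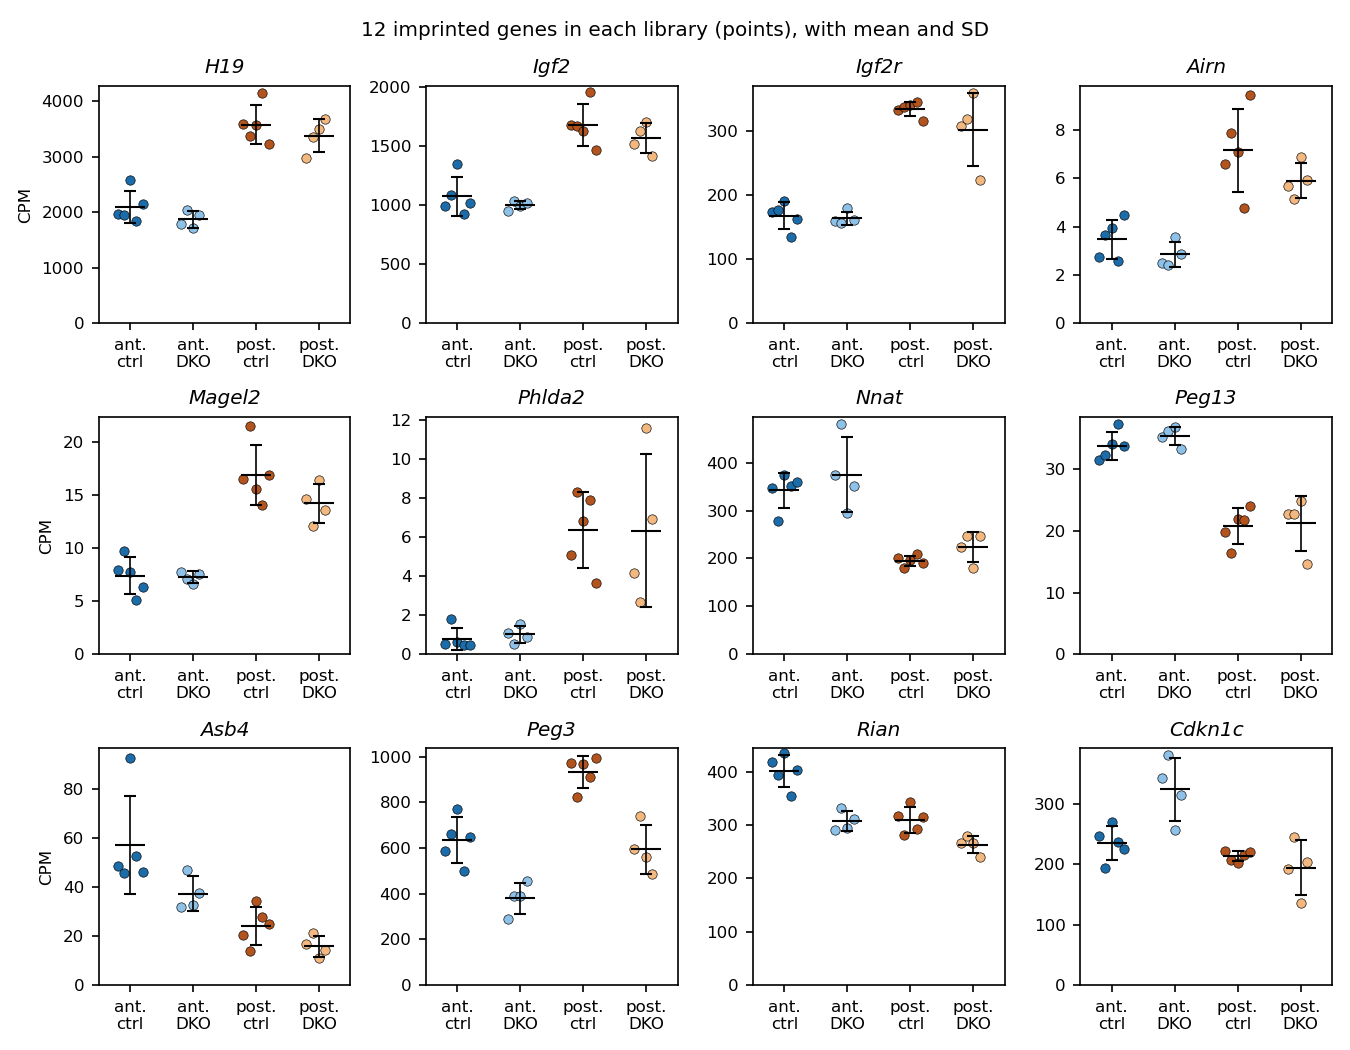
Level of 12 members in CPM in each library (points) of the 4 groups, with the mean (horizontal line) and SD (bars) and each axis starting at 0. H19, Igf2, Igf2r, Airn, Magel2, Phlda2 and Peg3 are higher in the posterior pieces, Nnat, Peg13, Asb4 and Rian are lower there, and Cdkn1c is apart between regions in the DKO libraries only.

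Both parental classes held members called in each direction between regions. Among 23 paternally expressed members 6 were called higher and 3 lower in controls, and among 17 tested maternally expressed members 4 were higher and 4 lower (12.1% and 13.3% of all genes). In DKO embryos 4 of 23 paternally and 4 of 18 maternally expressed members were higher and 3 of each class were lower (8.76% and 9.70% of all genes). Summed over members, maternally expressed genes ran from 4572 to 5657 CPM in anterior and from 6091 to 7006 CPM in posterior control pieces, and in DKO embryos from 4440 to 4886 and from 5674 to 6202 CPM. Paternally expressed genes summed to 5110 to 6237 CPM in anterior and 5485 to 6727 CPM in posterior control pieces, and to 4405 to 5169 and 4854 to 5990 CPM in DKO embryos. The maternal sums did not overlap between regions, while the paternal sums overlapped in both genotypes. H19 alone took 1710 to 4150 CPM in a library. Without H19 the maternal sums were 2730 to 3075 CPM in anterior and 2793 to 2947 CPM in posterior control pieces, and 2692 to 2853 and 2313 to 2788 CPM in DKO embryos, so that they overlapped.

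The second comparison set DKO against control embryos. Since the list was made with these values in view, they are given as a description. No member passed the threshold in either region, where 0.0394% of 15238 genes (6 genes) were called in the anterior pieces and 0.0126% of 15936 genes (2 genes) in the posterior ones. At an unadjusted p below 0.05 there were 15 of 40 tested members in the anterior pieces (13% of all genes) and 10 of 42 in the posterior pieces (11% of all genes). DESeq2 called 6 members in the anterior (Cdkn1c, Meg3, Rian, Peg3, Usp29 and Zim1) and 2 in the posterior pieces (Peg3 and Usp29), where it called 1.94% and 1.08% of all genes, and limma-voom called Rian in the anterior pieces and none in the posterior ones. Log2 fold changes were negative for 25 of 40 members in the anterior and 26 of 42 in the posterior pieces, with medians of −0.05 and −0.09 beside 0.00 and 0.01 for all genes.

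All 3 genes of the Peg3 cluster had negative log2 fold changes in both regions. Peg3, with the values given above, averaged 634 ± 100 CPM (SD, n = 5) in anterior control and 381 ± 67.9 CPM (n = 4) in anterior DKO pieces, and every DKO library was below every control library. The posterior means were 933 ± 68.7 and 594 ± 107 CPM, also without overlap. The log2 fold changes of DKO over control were −0.74 ± 0.14 and −0.65 ± 0.11.

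Usp29, across the shared promoter region, had −0.70 ± 0.14 in the anterior and −0.52 ± 0.13 in the posterior pieces, with means of 22.0 ± 3.43 and 13.5 ± 2.36 CPM in anterior control and DKO libraries. Zim1 had the largest anterior value of all members, −1.18 ± 0.24, from 27.8 ± 7.58 CPM (SD, n = 5) to 12.2 ± 3.87 CPM (n = 4), and −0.43 ± 0.25 in the posterior pieces. In the anterior pieces all 3 genes of the cluster were separated between genotypes with DKO lower, and in the posterior pieces Peg3 alone was. With Rian, 4 members lay wholly below the controls in the anterior pieces and none above (2.62% and 2.46% of all genes), and 3 lay below and none above in the posterior ones (2.12% and 2.16%).

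All 5 members of the Dlk1-Meg3 cluster had negative log2 fold changes in the anterior pieces. Dlk1 had −0.88 ± 0.25, from 220 ± 37.3 CPM (n = 5) to 120 ± 54.4 CPM (n = 4), and DKO embryo 2 with 196 CPM stood within the control range while the other 3 were below it. Rtl1 had −0.57 ± 0.20, Meg3 −0.34 ± 0.09, Rian −0.38 ± 0.06 and Mirg −0.26 ± 0.08. Of these, Rian alone was without overlap. In the posterior pieces the values were nearer to 0, at −0.22 ± 0.21 for Dlk1, −0.32 ± 0.19 for Rtl1, −0.26 ± 0.10 for Meg3, −0.24 ± 0.07 for Rian (without overlap) and 0.05 ± 0.12 for Mirg.

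Other members were scattered on both sides of 0. In the posterior pieces Dcn had the value farthest from 0, 1.37 ± 0.70, from 0.907 ± 0.526 CPM (SD, n = 5) to 2.31 ± 2.45 CPM (n = 4), and Slc22a3 had −0.61 ± 0.29, both at few counts and with overlap. Asb4 had −0.61 ± 0.21 in the anterior and −0.60 ± 0.25 in the posterior pieces, and Mest −0.20 ± 0.06 and −0.29 ± 0.11. Cdkn1c was the highest in the anterior pieces at 0.46 ± 0.11, from 235 ± 28.1 CPM (n = 5) to 324 ± 51.5 CPM (n = 4), with overlap. It had −0.13 ± 0.13 in the posterior ones. Ube3a lay without overlap below the controls in the posterior pieces at −0.24 ± 0.07. Igf2 (−0.10 ± 0.09 and −0.10 ± 0.08), H19 (−0.17 ± 0.09 and −0.08 ± 0.08) and Igf2r (−0.04 ± 0.09 and −0.15 ± 0.11) lay within 2 SE of 0.

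Levels of markers of other tissues also differed in range between genotypes. Neural tube markers summed to 506 to 594 CPM in anterior DKO against 427 to 499 CPM in anterior control pieces, and somite markers to 247 to 316 against 325 to 392 CPM, both without overlap. In the posterior pieces the neural tube sums were 207 to 296 and 169 to 241 CPM, and the somite sums 219 to 389 and 390 to 537 CPM. None of the 6 markers of either list was called in either region. Erythroid markers ranged from 1040 to 5110 CPM in anterior controls and from 1320 to 2230 CPM in anterior DKO pieces, and from 1480 to 2470 and from 1790 to 3770 CPM in the posterior ones. Their 8 log2 fold changes of DKO over control were all negative in the anterior (median −0.70) and all positive in the posterior pieces (median 0.52), with none called. Endothelial markers had negative log2 fold changes for 6 of 6 in both regions (median −0.15 anterior and −0.22 posterior), and heart markers for 2 of 4 and 4 of 5. Gut endoderm markers were positive for 5 of 6 in both regions (median 0.33 and 0.30). Visceral yolk sac endoderm markers were positive for 1 of 4 in the anterior and 5 of 5 in the posterior pieces (median −0.57 and 1.41), with sums of 5.57 to 12.1 CPM in posterior control and 6.4 to 38.7 CPM in posterior DKO pieces. None of these markers was called between genotypes. The part of these cell types in the values of Peg3, Zim1, Dlk1 and Rian was not tested.

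**Figure D4:**
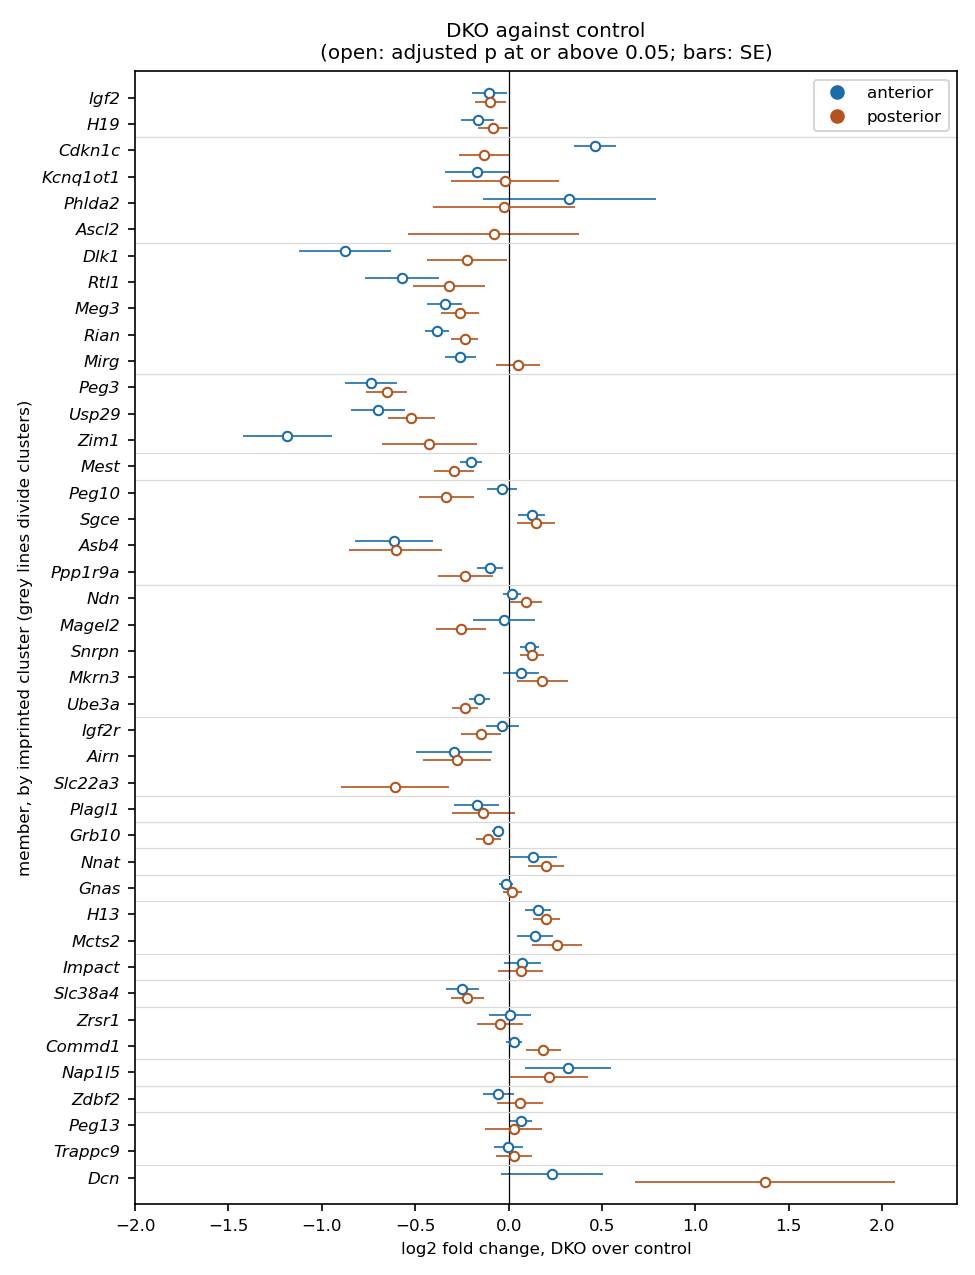
Log2 fold change of DKO over control for each tested member in anterior (blue) and posterior (orange) pieces, with bars for the standard error. All points are open because no adjusted p was below 0.05, and Zim1 (−1.18), Dlk1 (−0.88), Peg3, Usp29, Asb4 and Rtl1 hold the lowest anterior values.

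Whether the difference between regions depended on genotype was tested over all 18 libraries. No member and none of the 16428 genes passed (0.00% called), and 2 members and 567 genes (3.45%) had an unadjusted p below 0.05. DESeq2 and limma-voom called no member either. The lowest p was that of Cdkn1c, whose posterior-to-anterior difference was lower in DKO than in control embryos by 0.60 ± 0.19 on the log2 scale (edgeR adjusted p = 0.999). The other was Mirg at 0.31 ± 0.14 (adjusted p = 0.999). The call of Cdkn1c in DKO embryos and not in controls was therefore not shown to be a difference between genotypes. For the 8 members higher and 5 lower in both genotypes the interaction values lay between −0.33 (Phlda2) and 0.15 (Rian).

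A further comparison used the variation between embryos of the same genotype, and asked whether neighbours in a cluster deviate together. For each of 42 pairs of members from 1 cluster, deviations of log2 CPM from the genotype mean were correlated over the 9 embryos, separately in both regions, which gave 84 tests with exact two-sided permutation of embryos within genotype (smallest possible p 0.000347). Pearson's r was positive for 32 of 42 pairs in the anterior and 29 of 42 in the posterior pieces (76.2% and 69%). Of the 819 pairs of members from different clusters, 62% and 55.6% were positive, with a median r of 0.147 and 0.076 beside 0.293 and 0.22 within clusters. Pairs share genes and libraries, and this difference between kinds of pair was not tested. After adjustment over the 84 tests 6 pairs passed, and 15 had an unadjusted p below 0.05. No p-values were computed for pairs from different clusters, so these counts are not shown to be particular to neighbours.

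In the anterior pieces the passing pairs were Peg3 with Zim1 (r = 0.962, rho = 0.817, exact permutation p = 0.00243, adjusted p = 0.0389), which are expressed from opposite parental copies, and 3 pairs of the Dlk1-Meg3 cluster. These were Rian with Mirg (r = 0.925, rho = 0.933, exact permutation p = 0.00174, adjusted p = 0.0365), Dlk1 with Mirg (r = 0.87, rho = 0.867, exact permutation p = 0.000694, adjusted p = 0.0292) and Dlk1 with Rian (r = 0.79, rho = 0.85, exact permutation p = 0.00139, adjusted p = 0.0365). Dlk1 is paternally expressed and Rian and Mirg maternally. Without the 2 embryos farthest from the median of the first gene, r was 0.904, 0.876, 0.77 and 0.835 in this order.

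In the posterior pieces Dlk1 passed with its paternally expressed neighbour Rtl1 (r = 0.928, rho = 0.983, exact permutation p = 0.000347, the smallest possible, adjusted p = 0.0292), and Airn with Slc22a3 (r = 0.859, rho = 0.9, exact permutation p = 0.00278, adjusted p = 0.0389). Without the 2 farthest embryos r was 0.907 and 0.903. No pair passed in both regions. The p-values of rho, adjusted over the same tests, left 1 pair, Dlk1 with Rtl1 in the posterior pieces. Leaving out 1 embryo left 0 pairs in 8 of 9 cases and 3 pairs without DKO embryo 1, where the smallest possible p was 0.00174 or 0.00139.

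The values of r within clusters are given as a description, and differences between clusters were not tested. In the anterior pieces the 10 pairs of the Dlk1-Meg3 cluster had r from 0.287 to 0.925 (median 0.738) and the 3 pairs of the Peg3 cluster 0.835 to 0.962, whereas the 6 pairs of the Kcnq1 cluster ran from −0.777 to 0.523 (median −0.458). In the posterior pieces the Dlk1-Meg3 pairs spread from −0.309 to 0.928 (median 0.213). There the Peg3 pairs ran from 0.533 to 0.841 and the Kcnq1 pairs from −0.811 to 0.544 (median −0.107). Igf2 and H19 had r = 0.866 anteriorly and 0.559 posteriorly, which fell to 0.414 and −0.107 without the 2 farthest embryos, so that the relation rests on those embryos. The libraries of an embryo share their dissection, and variation in how tissue was cut would enter all genes of a piece. Embryos of a genotype also differed in somite number and sex label, for which the deviations were not adjusted. The part of each in these correlations was not tested.

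**Figure D5:**
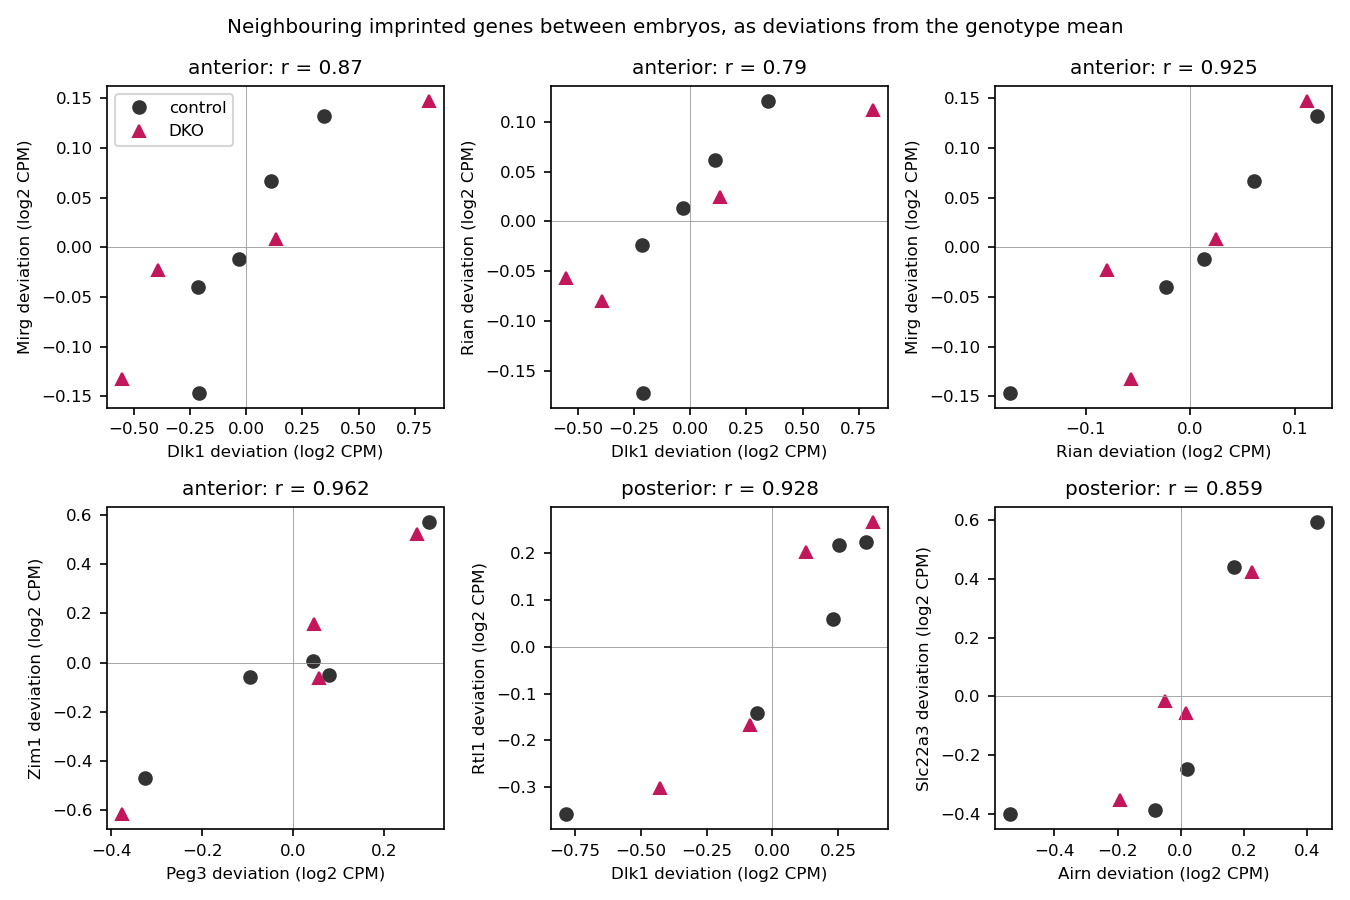
Deviation of log2 CPM from the genotype mean for the 6 pairs of neighbouring members with an adjusted p below 0.05, 1 point for each of the 9 embryos (circles control, triangles DKO). Points follow a rising line in all 6 panels, with r between 0.79 (anterior, Dlk1 and Rian) and 0.962 (anterior, Peg3 and Zim1).

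The machinery that sets and keeps imprints was examined as a separate list of 21 genes, also drawn up with results of these libraries known, among them DNA methyltransferases, Tet enzymes and zinc finger protectors of imprints. Of 18 tested in controls 2 were higher posteriorly, Dnmt3a (log2 fold change 0.25) and Dnmt3b (0.41), both de novo DNA methyltransferases, and 2 were lower, Ezh2 (−0.18), the catalytic subunit of the Polycomb complex that methylates histone H3, and Tet2 (−0.65), which oxidises methylated DNA. In DKO embryos Dnmt3a and Tet2 were called in the same directions. With 25.4% of all genes called in controls and 18.5% in DKO embryos, the list held no more calls than genes in general. No gene of the list was called between genotypes in either region (18 and 19 tested). The summed level of the list was 3630 to 3940 CPM in anterior and 3700 to 3970 CPM in posterior control pieces.

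A second list held 34 further imprinted genes that are not among the 43. In controls 24 could be tested, and 4 of them had a higher and 8 a lower posterior level, and of 25 in DKO embryos 3 were higher and 8 lower, where 12.1% and 13.3% of all genes were called higher and lower in controls and 8.76% and 9.70% in DKO embryos, with none called between genotypes. The largest rise was that of Dio3 (log2 fold change 2.56), a paternally expressed gene at the far end of the Dlk1-Meg3 cluster whose product inactivates thyroid hormone. Their summed level was 654 to 682 CPM in anterior and 669 to 702 CPM in posterior control pieces, well under that of the 43.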

How the data were processed

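RNA sequencing of poly(A) RNA (single reads of 61 bp, per the labels' protocols) gave 18 libraries from 9 embryos. The authors deposited 1 table of RSEM expected counts per Ensembl gene of GRCm38. CASAVA, cutadapt and RSEM are named in the submitters' processing notes, and the aligner, the versions and the use of strand are not given in the sources used here. Symbols, coordinates and exon lengths (bases of all annotated exons) came from GENCODE M21 of the same build, which held 53360 of 53465 identifiers.

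The analysis ran on rounded expected counts under edgeR 4.0.16 (R 4.3.3): filterByExpr (minimum count 10, minimum total 15), TMM scaling, glmQLFit and glmQLFTest, with Benjamini-Hochberg adjustment over all genes tested and a threshold of 0.05. The SE of a log2 fold change was obtained from its size and the F statistic (size over root F). CPM are TMM-scaled over the 18 libraries, with 2 as the prior count of log2 CPM. Reads carry no molecular identifiers, so a floor of 3 counts covers counting error only. The fits were tested on simulated data.

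Alternatives were RLE size factors, DESeq2 1.42.0, limma-voom (limma 3.58.1), no filter, a filter at a mean of 50 counts, covariates for somite number and labelled sex, 1 fit of all libraries, the embryo as a replicate block, and leaving out each embryo. Anterior and posterior libraries were matched on genotype, sex label and somite number, and the match was checked: deviations from group means correlated at 0.256 to 0.57 within the 9 embryos and at −0.283 to 0.0916 between embryos of the same genotype, over 16428 genes. The highest correlation of log2 CPM between any pair of libraries was 0.9818, and none was identical.

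The members and lists were chosen with earlier results of these data known. Values per library are given for members past the threshold in a region comparison or in the interaction, for the 4 with the largest DKO difference per region at a mean of at least 50 counts, and for 14 leaders of clusters. Other members are given by range and count. From the other lists, up to 4 genes past the threshold with the largest change are named.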

Additional observations from a re-analysis of the deposited data

Results flagged for a closer look

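Within groups of 4 or 5 libraries, 1 value was set off from the others of its group by more than Dixon's 95% limit in 7 of 108 groups of values from 27 members, and chance sets off about 1 in 20. In the anterior controls, Phlda2 of control 2 was 1.78 CPM (others 0.453 to 0.622), Asb4 of control 3 was 92.7 CPM (others 45.7 to 52.8) and Nnat of control 2 was 279 CPM (others 347 to 374). In the posterior controls, Meg3 of control 4 was 112 CPM (others 149 to 164) and Peg10 of control 2 was 526 CPM (others 748 to 759). In the posterior DKO pieces, Kcnq1ot1 of DKO 2 was 9.69 CPM (others 18.5 to 20.2) and Grb10 of DKO 4 was 1160 CPM (others 1410 to 1460). No embryo held more than 3 of the 7 values, and control 2 held 3 of them.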

How the results depend on the processing

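No fold change changed its sign in any alternative among the members called between regions, the 4 with the largest DKO differences per region, and Cdkn1c in the interaction. Between regions the number of members called was within 1.5 times of 17 (controls) and 14 (DKO) in every alternative, and leaving out 1 embryo gave 15 to 18 and 11 to 13. The embryo as a replicate block gave 21 and 17 and changed no call other than those named (in controls it added Dlk1, Meg3, Ndn, Gnas and Dcn and lost Nap1l5, in DKO embryos it added Kcnq1ot1, Usp29 and Plagl1), and 0 members in the interaction. In the anterior DKO comparison, where the count was 0, DESeq2 gave 6 (1.94% of all genes), limma-voom 1 (0.19%), no filter 4 (0.274%), sex label and somite number as covariates 6 (0.578%; 1 of the 9 sex labels goes against the reads), all 18 libraries in 1 fit 2 (0.116%), and leaving out 1 embryo 0 to 2 (Rian without control 4, 0.0329%; Dlk1 and Rian without DKO 2, 0.369%). In the posterior one DESeq2 gave 2 (1.08%), no filter 1 (0.0451%), all 18 libraries in 1 fit 1 (0.31%), and leaving out 1 embryo 0 to 1 (Peg3 without DKO 2, 0.149%). The cause was not tested. The interaction stayed at 0 in each of 15 alternatives. Co-variation gave 6 pairs in the main setting. When both regions of an embryo were averaged, with adjustment over 42 tests, 1 pair passed, Rtl1 with Rian, which was not among the 6. Without 1 embryo 0 to 3 pairs passed, where 1 pair alone could not pass the adjustment. Scaling moved the median of all genes by little, from −0.007 to 0.002 in the control region comparison under RLE. Depth limits Kcnk9, Ascl2, Slc22a3 and Phlda2, whose anterior values rest on few counts.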
